A study of Mus musculus with 6 samples.

Results

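The angiopoietin and Tie receptor genes were followed in RNA from sorted mouse glomerular endothelial cells. The set was chosen by gene symbol and comprised Tek, Tie1, Angpt1, Angpt2 and Ptprb, and 4 of these 5 were matched among the 12911 genes of the tables. Angpt1 is not analysed here. All animals were eNOS-null. The 3 control pools came from mice with no treatment and the 3 STZ pools from mice given streptozotocin (STZ), a compound toxic to insulin-producing cells and the basis of this diabetes model. Each pool combined RNA of 4 mice, so every spread and p-value refers to pools rather than to single animals. Glomeruli were isolated with magnetic beads and dissociated, and EYFP-positive cells were sorted, with about 200000 cells per mouse. The labels used here give neither the promoter that drives EYFP, nor the animals' age, nor the time since STZ. The question was whether expression of this receptor system in glomerular endothelium differed between eNOS-null mice with and without STZ.

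Tek encodes TIE2, the receptor tyrosine kinase of endothelial cells that binds angiopoietins. Angiopoietin 1, made by cells that surround capillaries such as podocytes and mural cells, activates TIE2 and stabilises the vessel, and angiopoietin 2, which endothelial cells store in Weibel-Palade bodies, often acts against it. TIE1 is a related receptor that pairs with TIE2, and VE-PTP, the product of Ptprb, is a receptor-type phosphatase that removes phosphate from TIE2 and from the VE-cadherin complex.

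Several facts about the libraries bear on all values below. Total counts were 4387339 to 8751732.5 in control pools and 10734376 to 12662371.5 in STZ pools, so every STZ library was the deeper. Xist was at 690 to 746 CPM (counts scaled to library size and composition) in control pools and at 0.387 to 0.865 CPM in STZ pools, and all 4 Y-linked genes examined were higher in STZ, so treatment and the sex of the pooled mice cannot be told apart. The endothelial label was borne out by its markers: Emcn and Ehd3 exceeded 99.98% and 99.91% of tested genes in mean level per transcript length. Podocyte and mural markers were also present. Summed over 10 podocyte markers the level was 4369 to 7064 CPM in control and 4728 to 5843 CPM in STZ pools. Most of that sum was Podxl, which endothelium also makes. Without Podxl, a choice made after the values were seen, it was 2605, 3043 and 1413 CPM in control and 1914, 1405 and 1964 CPM in STZ pools, so control pool 3 and STZ pool 2 were both low. Summed over 12 mesangial and mural markers it was 1375 to 1484 CPM in control and 570 to 1106 CPM in STZ pools, without overlap and lowest in STZ pool 2.

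The RefSeq sequence before the start of the 2 Tie receptor genes is shown because the ETS, GATA, FoxO and hypoxia-inducible factors described further on are known regulators of this gene family. The 250 bases upstream of each start are given in build GRCm38.p6, with matches in capitals to the ETS motifs AGGAAG and CGGAAG, the GATA motif AGATAA, the FoxO motif GTAAACA and the hypoxia motif ACGTG, searched on both strands. The Tek sequence lies on chromosome 4 (chr4:94739039-94739288, plus strand) and the Tie1 sequence on the same chromosome (chr4:118489850-118490099, minus strand).
Tek: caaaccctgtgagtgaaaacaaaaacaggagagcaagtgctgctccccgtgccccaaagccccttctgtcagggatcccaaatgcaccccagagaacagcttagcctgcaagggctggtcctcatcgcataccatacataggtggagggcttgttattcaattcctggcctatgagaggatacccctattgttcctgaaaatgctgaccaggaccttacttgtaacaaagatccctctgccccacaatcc
Tie1: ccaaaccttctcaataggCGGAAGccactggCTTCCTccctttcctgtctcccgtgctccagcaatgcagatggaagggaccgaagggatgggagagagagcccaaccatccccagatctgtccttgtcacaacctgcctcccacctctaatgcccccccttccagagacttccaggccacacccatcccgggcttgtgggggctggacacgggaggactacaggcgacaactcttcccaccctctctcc
The Tie1 window held 2 matches, both to ETS motifs. They lay 227 to 232 and, on the opposite strand, 214 to 219 bases before the RefSeq start. The GENCODE M21 annotation places the start of Tie1 at 118490061, inside this window. Most of the window thus lies within the gene as annotated there, and the 2 matches lie just upstream of that start. The Tek window held 0 matches to these 5 motifs. Among 32817 mouse promoter windows of the same length, AGGAAG occurred in 29.5%, CGGAAG in 13.6%, AGATAA in 9.99%, GTAAACA in 3.16% and ACGTG in 16.6%. These are letter matches and do not show binding.

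The receptor genes were abundant and in a fixed order. Per transcript length, on the RPKM scale (CPM per kilobase of transcript), Tie1 stood at 368 ± 19.1 (SD, n = 3) in control and 366 ± 15.5 in STZ pools. Tek followed at 153 ± 10.1 in control and 155 ± 3.52 in STZ pools. Ptprb stood at 117 ± 12.2 and 118 ± 1.41 RPKM, and Angpt2 at 14.3 ± 1.84 and 10.2 ± 3.42 RPKM. Tie1 ranked 142 and Tek 418 among 12786 tested genes by mean RPKM, Ptprb ranked 588 and Angpt2 6395, near the middle of the list. The ranges of neighbours in this order did not overlap within either group. The closest pair was Tek over Ptprb, with a ratio of 1.08 in control pool 3 and at most 1.48 in the other control pools, against 1.28 to 1.34 in STZ pools. Tie1 exceeded Tek 2.24 to 2.75-fold in control and 2.31 to 2.45-fold in STZ pools. These ratios use the 1 transcript length listed per gene, and the tables list 3 transcripts for Tek.

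**Figure D1:**
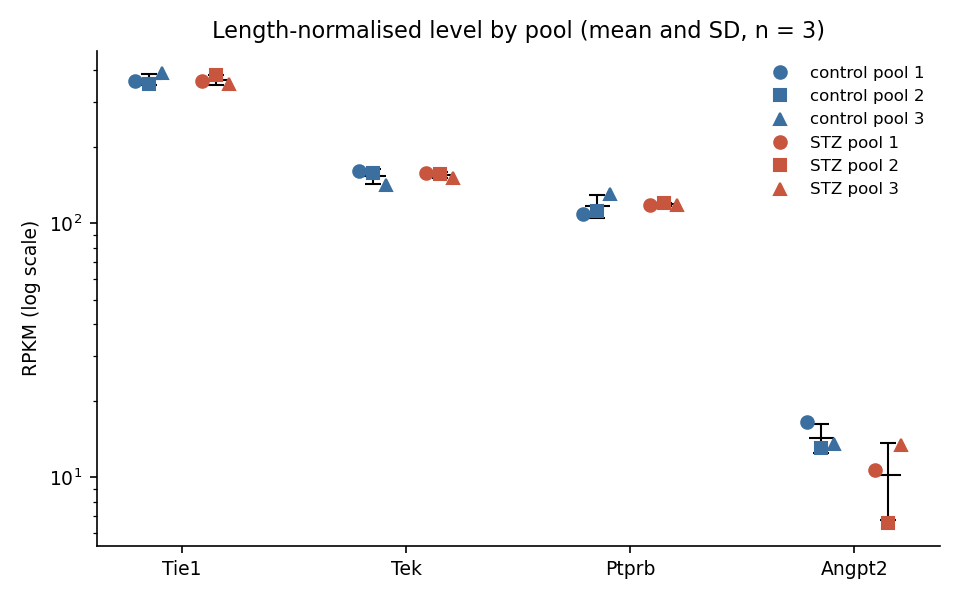
Level per transcript length (RPKM, log axis) of the 4 genes in each pool, with colour for the group, symbol for the pool number, and black marks for mean and SD over 3 pools. Tie1 lies between 352 and 389, Tek between 141 and 160.3, Ptprb between 108 and 131 and Angpt2 between 6.58 and 16.4 RPKM, and only Angpt2 shows a visible spread between STZ pools.

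Of the 4 genes, 0 passed an adjusted p of 0.05 in edgeR's quasi-likelihood test, in a table where 9.78% of 12786 genes did, 5.47% higher and 4.32% lower in STZ. None had an unadjusted p under 0.05 either (0 of 4), and DESeq2 and limma-voom each called 0. In all 4 the control and STZ pools overlapped, and 29.1% of all tested genes had groups that did not overlap. A set of 4 genes is too small to tell counts of 0 apart from these shares. Counts of calls and of separate groups in the lists below are to be read beside these shares.

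Tek (NM_001290549; mm10 chromosome 4, 94739289 to 94874976, plus strand) was counted 6856, 4592 and 3007 times in control pools 1, 2 and 3 and 7650, 8473 and 8749 times in STZ pools 1, 2 and 3. Scaled to the libraries, these were 753, 738 and 664 CPM in control and 739.6, 733 and 708 CPM in STZ. Control pool 3 was the lowest of the 6, and the STZ pools lay inside the control range. STZ differed from control by a log2 fold change of 0.02 ± 0.09 (SE; adjusted p = 0.939, edgeR). Its 95% interval corresponds to 0.880 to 1.16 times the control level.

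Tie1 (NM_011587; mm10 chromosome 4, 118471191 to 118489849, minus strand) had counts of 12771, 8507 and 6830 in control and 14590, 17155 and 16856 in STZ pools. This was 1403, 1366 and 1509 CPM in control and 1411, 1483 and 1364 CPM in STZ. Here control pool 3 was the highest of the 6 and STZ pool 3 the lowest. The log2 fold change was -0.01 ± 0.09 (adjusted p = 0.977, edgeR), with a 95% interval of 0.864 to 1.15 times the control level.

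Ptprb (NM_029928; mm10 chromosome 10, 116301374 to 116389538, plus strand) had counts of 11729, 8245 and 7041 in control and 14484, 16533 and 17306 in STZ pools. The CPM were 1289, 1324 and 1555 in control against 1400.3, 1430 and 1401 in STZ. As with Tie1, control pool 3 was highest, and without it the remaining control pools lay below all STZ pools, with a log2 fold change of 0.12 and an adjusted p of 0.490 (edgeR). With all 6 libraries the log2 fold change was 0.02 ± 0.10 (adjusted p = 0.925), with an interval of 0.873 to 1.18 times the control level.

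The coefficient of variation between control pools was 6.62% for Tek, 5.19% for Tie1 and 10.4% for Ptprb, and between STZ pools 2.28%, 4.23% and 1.19%. The counting intervals of control pool 3 (641 to 688 CPM for Tek and 1519 to 1592 CPM for Ptprb, exact Poisson, 95%) did not reach the other control pools, so its position exceeded counting error. Podocyte markers were also low in this pool, as they were in STZ pool 2, and their part in its receptor levels was not tested.

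Angpt2 was the least abundant and the most variable of the 4. It encodes angiopoietin 2 (NM_007426; mm10 chromosome 8, 18690263 to 18741562, minus strand) and had counts of 532, 289 and 217 in control and of 393, 271 and 588 in STZ pools. In CPM it stood at 58.5, 46.4 and 47.9 in control pools and at 38.0, 23.4 and 47.6 in STZ pools. STZ pools 1 and 2 lay below every control pool, while STZ pool 3 lay inside the control range. The log2 fold change was -0.49 ± 0.25 (SE), a fold of 0.711 with a 95% interval of 0.469 to 1.08, and did not pass the test (adjusted p = 0.296, edgeR). DESeq2 gave an adjusted p of 0.109 and limma-voom 0.150. Without STZ pool 2 the value was -0.26 (adjusted p = 0.297) and without STZ pool 3 it was -0.74 (adjusted p = 0.0576). The interval therefore includes a fall to about 0.47 of the control level as well as no change, and the data do not show that Angpt2 was alike in the groups.

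The low Angpt2 value of STZ pool 2 lay beyond counting error. Its exact Poisson interval of 20.7 to 26.4 CPM lay below the interval of each other library, of which STZ pool 1 had the lowest, at 34.3 to 41.9 CPM. Angpt2 lies within Mcph1, a gene on the opposite strand (18595131 to 18803189 in GENCODE M21), and the strand setting of the counting is not given in the sources used here. The exons of the 2 genes share 0 bases, and Mcph1 stood at 3.05 to 7.95 CPM, with a log2 fold change of 0.11 ± 0.31 (adjusted p = 0.870, edgeR).

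Most mesangial and mural markers were lowest in the pool where Angpt2 was lowest. In STZ pool 2, 11 of the 12 markers had their lowest value, and the STZ pools had the same order in the summed mural level as in Angpt2. The control pools did not, since control pool 2 had the highest mural sum and the lowest Angpt2 of the 3, and the mural sum of STZ pool 3 lay below every control pool while its Angpt2 did not. Of the 12 such markers, 3 (Cspg4, Rgs5 and Notch3) were called lower and 0 higher, against 4.32% and 5.47% of all tested genes. In 10 of them the STZ pools lay wholly below the control pools, while 29.1% of all tested genes had separate groups in either direction. The median log2 fold change was -0.855, against -0.01 over all tested genes. Acta2, the smooth muscle actin, was at 155, 128 and 148 CPM in control and 115, 74.5 and 127 CPM in STZ pools, lowest in STZ pool 2 as Angpt2 was. Itga8, the integrin subunit that marks mesangial cells, was at 227, 255 and 214 CPM against 148, 74.3 and 165 CPM. Serpine2, a secreted protease inhibitor abundant in mesangial cells, had a log2 fold change of 0.055 ± 0.30 (adjusted p = 0.940), but it too was lowest in STZ pool 2, at 128 CPM. Podocyte markers had 0 of 10 called by edgeR, 2 of them with an unadjusted p under 0.05, and a median of -0.66, and 5 of the 10 were lowest in STZ pool 2 and 4 in control pool 3. Tubule markers, of which 1 of 6 (Slc12a1) was called lower, summed to 272, 451 and 124 CPM in control and 127, 24.5 and 211 CPM in STZ pools, again lowest in STZ pool 2. Leukocyte markers, with 1 of 6 (Cd79a) called lower, summed to 84.8 to 110 CPM over all pools. The part of these cells in the Angpt2 values was not tested. In bulk RNA fewer cells of a type and less RNA per cell cannot be told apart.

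**Figure D2:**
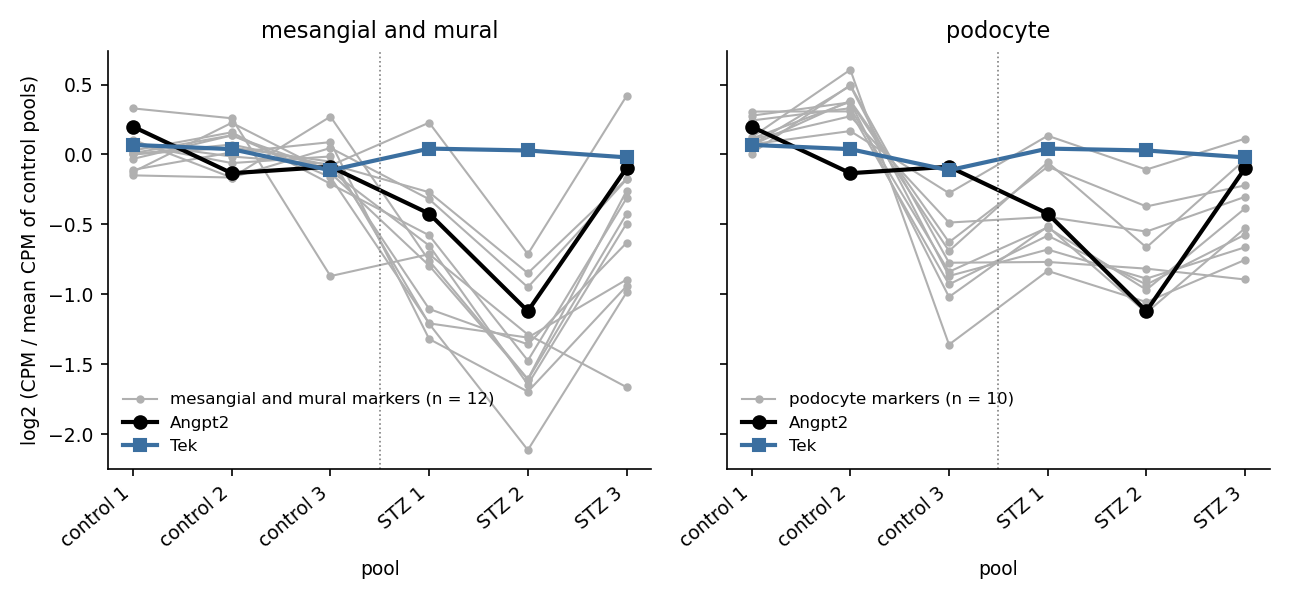
Level of Angpt2 (black), Tek (blue) and marker genes (grey) in each pool, as log2 of CPM over the mean of the 3 control pools, with 12 mesangial and mural markers on the left and 10 podocyte markers on the right. Lines join the values of 1 gene and imply no order of pools. Angpt2 and most mural markers are lowest in STZ pool 2, podocyte markers are low in both control pool 3 and STZ pool 2, and Tek stays near 0 throughout.

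Ratios within a library do not depend on scaling between libraries. The count ratio of Tek to Tie1 was 0.537, 0.5398 and 0.440 in control and 0.524, 0.494 and 0.519 in STZ pools. The STZ values lay within the control range, with a difference in log2 ratio of 0.03 (exact permutation test, two-sided, p = 1, the smallest possible p being 0.1). Ptprb to Tek was 1.71, 1.796 and 2.34 in control and 1.89, 1.95 and 1.98 in STZ pools, a difference of 0.01 (exact permutation p = 1). In both ratios control pool 3 stood apart from the other control pools and the STZ pools were close together. Angpt2 to Tek, the ligand relative to its receptor, was 0.0776, 0.0629 and 0.0722 in control and 0.0514, 0.0320 and 0.0672 in STZ pools. STZ pool 3 overlapped the control pools, and the difference of -0.56 was not past the test (exact permutation p = 0.2, adjusted p = 0.333 over 5 ratios).

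A further pair of ratios, chosen after their values were seen, set the axis against endothelial genes that changed. Kdr, the main VEGF receptor, to Tek was 1.66, 1.63 and 1.76 in control and 2.51, 2.67 and 2.42 in STZ pools. Cdh5, which encodes VE-cadherin, to Ptprb was 0.772, 0.842 and 0.712 in control and 1.06, 1.08 and 1.03 in STZ pools. The groups did not overlap in either, but Kdr and Cdh5 were picked for their change, so this separation is not independent evidence. The log2 ratio was higher in STZ by 0.59 for Kdr to Tek and by 0.45 for Cdh5 to Ptprb, each with the smallest p that 3 against 3 pools allow (exact permutation p = 0.1, adjusted p = 0.25 over 5 ratios), which is not below 0.05.

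**Figure D3:**
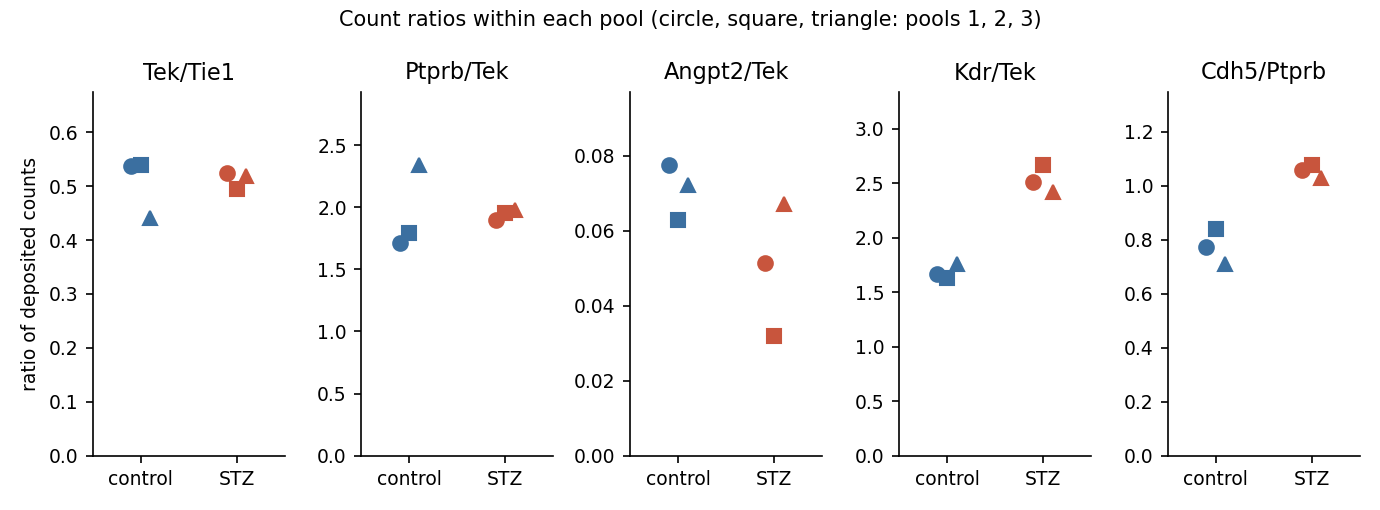
Ratio of deposited counts within each pool for 5 pairs of genes, each on its own linear axis starting at 0, with colour for the group and symbol for the pool number. Control and STZ pools overlap for Tek/Tie1, Ptprb/Tek and Angpt2/Tek and are separate for Kdr/Tek, from 1.76 to 2.42, and for Cdh5/Ptprb, from 0.842 to 1.03.

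Of the genes whose products work with VE-PTP, 3 of 6 were called higher and 0 lower, and the other 3 missed the threshold. Jup, which encodes plakoglobin and links VE-cadherin to the cytoskeleton, rose by 0.74 ± 0.095 on the log2 scale, from 623 to 1039 CPM (adjusted p = 0.000300, edgeR). Kdr rose by 0.61 ± 0.10 (adjusted p = 0.00137) and Cdh5 by 0.47 ± 0.095 (adjusted p = 0.00639). All 3 calls held in each of the 6 fits that left out a library. The catenin genes Ctnnb1 (0.08) and Ctnnd1 (0.05) and the guanine nucleotide exchange factor gene Fgd5 (-0.03) did not pass. The list median was 0.28. Kdr and Cdh5 are also among the 8 endothelial markers, of which 5 were called higher and whose summed level was 9685 to 10895 CPM in control and 14695 to 15879 CPM in STZ pools. The part of that shift in these calls was not tested. Among the relatives of VE-PTP, the R3 group of receptor phosphatases, 1 of 3 was called: Ptprj (0.45 ± 0.13, adjusted p = 0.0390, edgeR), whose call was lost in 4 of the 6 fits without a library (adjusted p of 0.0548 to 0.161, all but those without control pool 2 or STZ pool 2) and with limma-voom (0.0573). Ptpro, the phosphatase of podocytes, was at -0.71 ± 0.43 and is also in the podocyte marker list. Ptprq was at -0.03, and Ptprh is not analysed here.

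**Figure D4:**
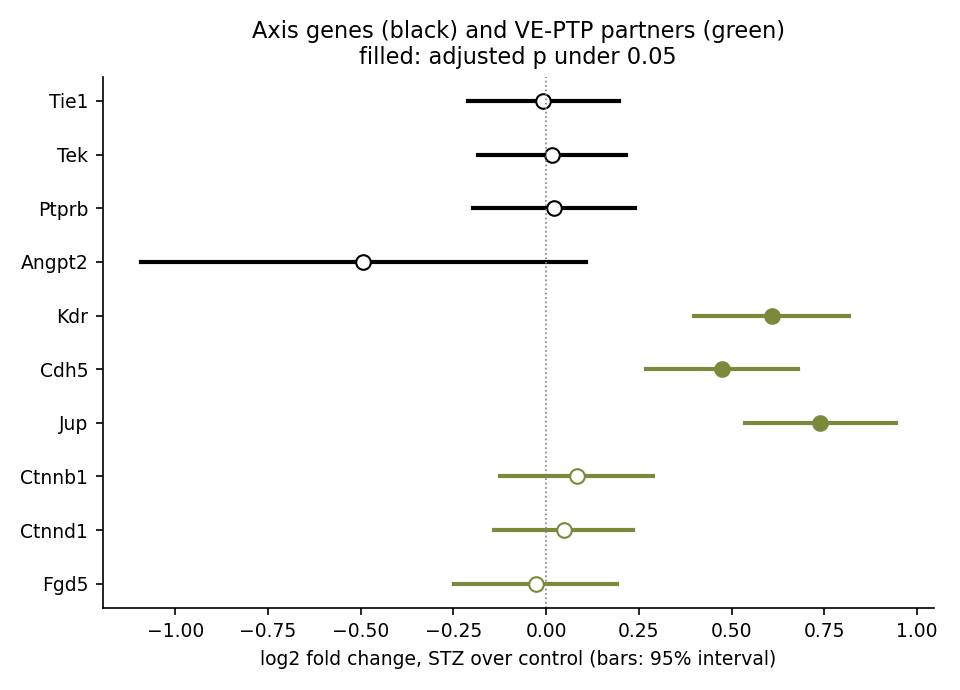
Log2 fold change of STZ over control with its 95% interval for the 4 axis genes (black) and the 6 VE-PTP partners (green), filled where the adjusted p was under 0.05. The intervals of Tie1, Tek and Ptprb lie within 0.25 of 0, that of Angpt2 runs from -1.09 to 0.11, and Kdr, Cdh5 and Jup lie to the right of 0.

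The list of angiopoietin-like genes and Svep1 had 0 of 5 called, with a median of -0.40. A place in this list does not mean that the product binds a Tie receptor. In 2 of the 5 the groups did not overlap, beside 29.1% of all tested genes. By unadjusted p under 0.05 there were 3 of 5, DESeq2 called 1 and limma-voom 0. Angptl4, an angiopoietin-like inhibitor of lipoprotein lipase, was at 7.36, 5.78 and 3.76 CPM in control and 13.7, 7.44 and 15.6 CPM in STZ pools (log2 fold change 1.07 ± 0.31, adjusted p = 0.0551, edgeR, named after its value was seen). Svep1, a matrix protein that binds TIE1, was at 13.3 ± 1.12 CPM in control and 10.2 ± 1.71 in STZ pools (-0.40 ± 0.18, adjusted p = 0.199, edgeR). Angptl2, the most abundant of the list, was at 231, 269 and 86.8 CPM in control and 124, 79.0 and 129 CPM in STZ pools and did not pass with all 6 libraries (-0.83 ± 0.50, adjusted p = 0.404). Without control pool 3 Angptl2 was called lower (-1.17, adjusted p = 0.0281, edgeR). Podocyte markers were low in control pool 3 and STZ pool 2, as Angptl2 was, and their part in its values was not tested. Angpt4, Angptl1 and Lect2 are not analysed here.

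Of the signalling genes downstream of TIE2, 2 of 23 were called higher and 1 lower, and 20 missed the threshold, with a median of -0.03. Over all tested genes 9.78% were called. Pik3r1, the regulatory subunit of phosphoinositide 3-kinase that docks on the receptor, fell by 0.50 on the log2 scale (SE 0.10), from 157 ± 6.75 to 111 ± 12.1 CPM (adjusted p = 0.00517, edgeR), and was called in each fit that left out a library. The catalytic subunit gene Pik3ca was at 0.185 ± 0.08 (adjusted p = 0.180), with every STZ pool above every control pool. Rac1, a small GTPase of the cortical cytoskeleton, rose by 0.33 ± 0.095 (adjusted p = 0.0430, edgeR), and Pxn, which encodes the focal adhesion adaptor paxillin, by 0.305 ± 0.09 (adjusted p = 0.0419). Each of these calls was lost in 5 of 6 fits without a library (adjusted p of 0.0568 to 0.204 for Rac1, which held without control pool 2, and of 0.0820 to 0.124 for Pxn, which held without control pool 3), and both also with upper-quartile scaling (0.0528 and 0.0509) and after thinning to equal depth (0.0626 and 0.0690). Akt1 was at 0.02 and Akt2 at -0.22, neither past the test. Nos3, the gene that the genotype targets and a target of AKT, was at -0.31 ± 0.11 (adjusted p = 0.0910, edgeR) with STZ pools wholly below control pools. Its level was high for a gene targeted by the genotype, at 840 CPM in control and 676 CPM in STZ pools. It exceeded 97.5% of tested genes in mean level per transcript length. Counts per gene do not show whether its transcripts carry the null allele.

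FoxO factors are inhibited by AKT downstream of TIE2 and in turn raise Angpt2 transcription. Foxo1 was at 136, 138 and 133 CPM in control and 142, 156 and 128 CPM in STZ pools (0.06 ± 0.09, adjusted p = 0.742, edgeR), and Foxo3 and Foxo4 did not pass either. Of the 14 FoxO factors and targets, 4 were called higher and 0 lower, and 10 missed the threshold, with a median of 0.20. Trib1, a pseudokinase, rose by 0.99 ± 0.12, from 53.4 to 106 CPM. Tsc22d3 rose by 0.86 ± 0.09, from 255 to 463 CPM, and is also a well-known glucocorticoid-induced gene. Sesn1, a stress-inducible regulator of growth signalling that p53 also induces, rose by 0.59 ± 0.10, from 57.3 to 86.4 CPM. These 3 calls held without any single library, whereas that of Bcl6, a transcriptional repressor (0.69 ± 0.20, adjusted p = 0.0490, edgeR), was lost in all fits without a library but that without control pool 2 (adjusted p of 0.0675 to 0.166). Bcl6 was also not called by limma-voom (0.0544), with upper-quartile scaling (0.0558) or after thinning (0.0626).

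Transcription factors that act on Tek, Tie1 or Angpt2 went in both directions, with 2 of 10 called higher, 2 lower and 6 not past the test, and a median of 0.07. Erg, an ETS factor of endothelial identity, rose by 0.45 ± 0.10, from 93.2 ± 13.2 to 126 ± 2.99 CPM (adjusted p = 0.0145, edgeR). Fli1, a close ETS relative, fell by 0.31 (SE 0.08), from 230 ± 5.16 to 185 ± 6.64 CPM (adjusted p = 0.0354, edgeR). Epas1, the hypoxia-inducible factor HIF-2alpha, rose by 0.33 ± 0.095 and the homeobox gene Hhex fell by 0.43 (SE 0.105). Each of these 4 calls was lost without at least 1 library. The adjusted p of Erg was 0.0884 when control pool 1 was left out and 0.0589 when STZ pool 3 was. That of Hhex was 0.0612 when control pool 3 was left out, 0.108 for STZ pool 1, 0.0721 for STZ pool 3 and 0.0664 after thinning. Fli1 (0.0550 to 0.178) and Epas1 (0.0742 to 0.164) lost theirs in every fit without a library but that without control pool 3. Fli1 was also not called after thinning (0.0863), nor Epas1 with upper-quartile scaling (0.0534). Ets1 was at -0.25 ± 0.09 and Gata2 at 0.415 ± 0.14, neither past the test, and Tek and Tie1 themselves were near 0 beside these factors.

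Angiopoietin 2 storage and release, receptor shedding and integrin co-receptors completed the set. Of 10 genes of Weibel-Palade bodies and their release, 1 was called, the vesicle fusion gene Vamp3 (0.35 ± 0.085, adjusted p = 0.0196, edgeR), whose adjusted p passed 0.05 on leaving out control pool 1 (0.0558), control pool 2 (0.0525), STZ pool 1 (0.121) or STZ pool 3 (0.0552). DESeq2 and thinning each called 1 gene of this list lower, and the fit without control pool 3 called 2. Cd63, a granule membrane protein named after its value was seen, was at -0.67 ± 0.22 (adjusted p = 0.0999, edgeR). It stood at 41.2, 50.8 and 31.15 CPM in control and 27.4, 19.0 and 31.6 CPM in STZ pools. Within each group it was lowest in control pool 3 and STZ pool 2, where podocyte markers were low, and their part in its values was not tested. Vwf, the main content of these granules, was at 13.7, 11.1 and 9.50 CPM in control and 11.6, 11.1 and 13.0 CPM in STZ pools (log2 fold change 0.04 ± 0.18, adjusted p = 0.931, edgeR), with groups that overlapped. Of 5 sheddases, 0 were called by edgeR, 2 had an unadjusted p under 0.05, DESeq2 called 1 and limma-voom 0. Adam10 was at 0.10 ± 0.08 and Adam17 at 0.21 ± 0.09, with STZ pools above control pools in both. Mmp2, a matrix metalloproteinase named after its value was seen, went the other way (-0.64 ± 0.26, adjusted p = 0.182, edgeR) with STZ pools below control pools, and the DESeq2 call of this list was in the lower direction. Of 5 integrin subunits that can bind angiopoietins, Itgb3 rose, from 29.3, 28.8 and 48.8 CPM in control to 71.7, 75.8 and 76.7 CPM in STZ pools (1.095 ± 0.18, adjusted p = 0.00480, edgeR). Its partner Itgav was at -0.30 ± 0.14 and Itga5 at -0.11 ± 0.10, and neither passed.

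Over all 9 lists, 14 of 81 tested genes were called higher and 3 lower, 20.99% in all against 9.78% of all tested genes, with a median log2 fold change of 0.05. The lists were chosen with earlier results of these data known and no set test was run, so this difference is a description only. Of these 17 genes, 8 kept the call in every fit that left out a library. The number called higher was 7 without control pool 1, 8 without STZ pool 1 and 7 without STZ pool 3, and the number called lower was 7 without control pool 3 and 1 without STZ pool 1.

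**Figure D5:**
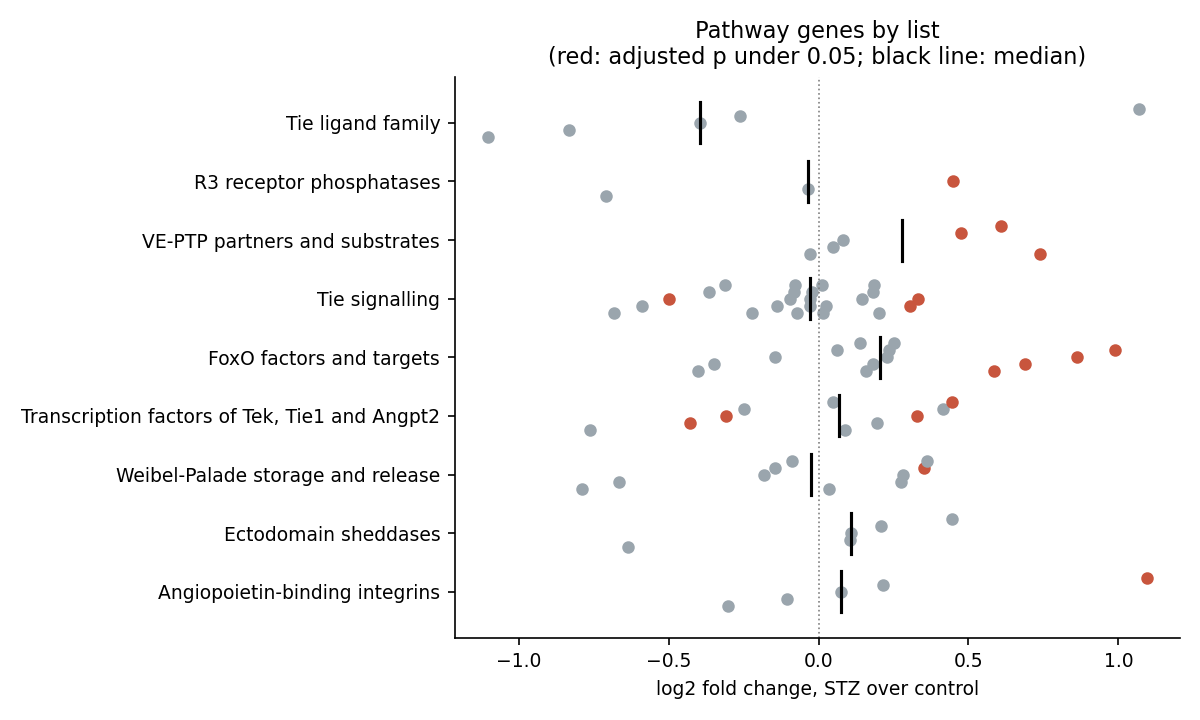
Log2 fold change of STZ over control for each tested gene of the 9 pathway lists, in red where the adjusted p was under 0.05, with the list median as a black line (vertical scatter within a list has no meaning). Called genes stand on both sides of 0 among signalling genes and transcription factors. The sheddase list and the list labelled Tie ligand family, which holds angiopoietin-like genes and Svep1, have no red point.

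The genes whose CPM followed each member most closely were found by Pearson's r of log2 CPM over the 6 libraries, among 10153 genes with a mean log2 CPM of at least 3. Tek was most like Rbm43 (0.985), Taf7 (0.984) and Rnf114 (0.981), Tie1 like Polr3b (0.994), Rsad1 (0.993) and Derl2 (0.991), and Ptprb like Axin2 (0.996), Csnk1g3 (0.994) and Zfp507 (0.986). Angpt2 was most like Tln2 (0.997), Col8a1 (0.987) and St14 (0.984). Col8a1, a collagen chain, was at 22.5, 18.8 and 19.7 CPM in control and 15.2, 8.04 and 17.1 CPM in STZ pools. It was lowest in STZ pool 2 as Angpt2 was, which follows from its being picked for likeness to Angpt2. Among the members, r was -0.88 between Tek and Ptprb, 0.76 between Tie1 and Ptprb and -0.53 between Tek and Tie1, and control pool 3 was the lowest library for Tek and the highest for Tie1 and Ptprb. Angpt2 had r of -0.11 with Tek. With 6 points from libraries that share depth and composition within a group, these are descriptions of likeness only. The genes named were the highest among 10153 values of r, so their r is high by selection.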

How the data were processed

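RNA-seq tables of 6 libraries, 3 control and 3 STZ, were used. The deposited values are estimated counts per gene made by the authors: all are multiples of 0.5, and 2251 genes have a fractional value, though none of the members does. The build is mm10 and limma is named without a role, per the submitters' processing notes. For the aligner, the counter and the strand setting: not given in the sources used here. Estimated counts were rounded to whole numbers, 34 blank cells were read as 0, and 12786 genes passing edgeR's expression filter were tested with the quasi-likelihood test (edgeR 4.0.16, R 4.3.3, TMM scaling, Benjamini-Hochberg adjustment). DESeq2 1.42.0, limma 3.58.1 (voom), other scalings and filters, thinning, a replicate block and leaving out each library were alternatives. CPM and RPKM were computed from the counts. Counting intervals cover counting error only. Ratios used 0.5 added to each count for the log2 scale, and p-values were adjusted over the 5 ratios computed. A ratio of Angpt2 to Angpt1 was planned and not computed, since Angpt1 is not analysed here.

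On simulated counts for 12785 genes, 62.7% of genes changed 1.5-fold, 98.5% changed 2-fold and 100% changed 4-fold were recovered, and 3.87% of calls were unchanged genes. Every simulated gene had the same biological coefficient of variation, 0.117, and only genes above a minimum mean count were changed. The rates do not carry over to genes that vary more, such as Angpt2, with a coefficient of variation of 33.5% between STZ pools. The members and gene lists were chosen with earlier results of these data known. Named were the called genes of each list (at most 4 by smallest p, or the 2 most abundant where none was called), the 3 genes most like each member, predicted genes left out, and the 2 most abundant markers of a list. Other genes named were picked after their values were seen, and some genes of the lists are not reported here by name.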

Additional observations from a re-analysis of the deposited data

How the results depend on the processing

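Under 8 alternatives of scaling, filter, tool, depth and blocking, Angpt2 stayed between -0.56 and -0.45 on the log2 scale with adjusted p from 0.103 to 0.297. Tek, near 0, changed sign with upper-quartile scaling (-0.00024), and the Ptprb to Tek log2 ratio did after thinning (-0.011). DESeq2 called 5 pathway genes lower. Serpine2 changed sign with limma-voom (-0.021) and with the replicate block (-0.016), Rbm43 after thinning (0.022) and with the block (0.0082), and Rnf114 (0.086) and Rsad1 (0.15) after thinning. The cause was not tested.

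Leaving out each library in turn, the log2 fold change ran from -0.032 to 0.053 for Tek, -0.040 to 0.040 for Tie1, -0.029 to 0.115 for Ptprb and -0.74 to -0.26 for Angpt2. The log2 ratio ran from -0.072 to 0.075 for Tek to Tie1 and from -0.079 to 0.147 for Ptprb to Tek. Genes called higher numbered 426 (without STZ pool 1) to 695 and lower 236 (without STZ pool 1) to 596. Without control pool 1 they numbered 444 and 276, and without STZ pool 3 the lower ones 355. Pathway genes called higher numbered 7 to 12 and lower 1 to 7. Ranges that crossed 0 were also those of Axin2 (-0.133 to 0.53), Csnk1g3 (-0.046 to 0.203), Zfp507 (-0.021 to 0.239), Rbm43 (-0.135 to 0.086), Rnf114 (-0.042 to 0.022), Taf7 (-0.063 to 0.115), Polr3b (-0.142 to 0.075), Rsad1 (-0.116 to 0.118), Derl2 (-0.050 to 0.026), Podxl (-0.066 to 0.143) and Serpine2 (-0.169 to 0.325).

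The labels do not state that libraries with the same number were paired. Deviations of such libraries from their group means correlated at 0.175, -0.157 and -0.171 over 10580 genes, and pairs with unlike numbers at -0.348 to 0.357. Deviations within a group depend on each other, so these values cannot decide whether libraries were paired. With the replicate block Tek was at 0.019, Tie1 at -0.0064, Ptprb at 0.026 and Angpt2 at -0.54 (adjusted p = 0.103, edgeR), and 10 pathway genes were called higher and 3 lower. Past 0.05 with the block were Rac1 (0.106), Pxn (0.103), Ptprj (0.0665), Fli1 (0.0813) and Epas1 (0.128). Angpt2 had 217 to 588 counts per library.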
